A study of Homo sapiens with 12 samples.

Results

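Integrins are receptors of the cell surface, each built from 1 alpha and 1 beta subunit, that hold cells to collagen, laminin, fibronectin and vitronectin and pass force to the actin cytoskeleton. Some αv integrins have a further role: αvβ6 and αvβ8 bind the latency peptide of TGF-β in the matrix or on the cell surface and release or expose the active cytokine. In breast epithelium the integrins that carry the β1 chain anchor cells to the basement membrane. The genes described here encode 10 subunits of these receptors, chosen by name with earlier results of these data known. These genes are the alpha subunits ITGA2, ITGA3, ITGA5 and ITGAV and the beta subunits ITGB1, ITGB2, ITGB3, ITGB5, ITGB6 and ITGB8. They were 10 of the 60483 gene rows measured, and all 10 passed the filter on low counts, which left 14822 genes for testing. A single gene, ITGB2, stands outside the group by its textbook role, since the β2 chain is the shared partner of the leukocyte adhesion receptors.

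The cells were MCF10A, a non-tumorigenic line of human mammary epithelium, transduced with a doxycycline (Dox) controlled TAZ-4SA, a constitutively active form of the Hippo pathway coactivator TAZ. RNA was sequenced from 3 libraries without Dox (No Dox) and from 3 libraries each after 24 h, 48 h and 72 h in 0.05 µg/mL Dox. Every library came from the transduced line, all grown in the same serum, EGF, insulin, hydrocortisone and cholera toxin medium, and the sources used here do not say whether the line is a clone or a pool. The No Dox cells carried no time label, and neither a line without the transgene nor later No Dox times were analysed here, so TAZ-4SA, Dox itself and time in culture cannot be told apart. Nothing in the labels says that the 3 libraries of a group came from separate cultures, and the p-values then measure only the spread between these libraries.

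Libraries held 15382564 to 26570132 counts. WWTR1, the gene of TAZ, stood at 26.6 ± 2.88 TPM (SD, n = 3) in No Dox and at 1002, 993.7 and 1126 TPM on average at 24, 48 and 72 h. TPM is a level corrected for transcript length and library depth that may be set side by side between genes. In counts its log2 fold changes were 3.63, 3.55 and 3.79, or 12.4-fold, 11.8-fold and 13.9-fold, and its effective length was 3228.5 bases in No Dox and 1066.8 to 1110.8 bases on average in the Dox groups. Reads of the transgene and of the cells' own WWTR1 were not separated here. Of 11 mammary epithelial markers, 10 stood at 1 TPM or more in every group and only KRT19 lay near 0, with summed levels of 7104 to 7536 TPM in No Dox, 8469 to 8912 at 24 h, 9852 to 10028 at 48 h and 9890 to 10563 at 72 h. The sum hides moves in both directions. From No Dox to 72 h, KRT7 went from 1856 to 4077 TPM, KRT8 from 196 to 1898 and KRT18 from 348 to 1914. KRT17 went from 2270 to 607 TPM and KRT5 from 2009 to 964. In such bulk libraries fewer cells of a kind and less RNA per cell cannot be told apart.

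Levels spanned a wide range. ITGB1, the beta chain shared by the receptors for collagen, laminin and fibronectin, was the most abundant of the 10 subunits in all 4 groups, with 359.8 ± 4.77 TPM (SD, n = 3) in No Dox, and ITGA3, the laminin-binding α3 chain, was next in all 4 at 191.6 ± 7.96 TPM in No Dox. They were followed in No Dox by ITGA5 (72.6 TPM), ITGB5 (36.9), ITGAV (28.9), ITGB8 (21.7), ITGA2 (18.4), ITGB2 (7.71), ITGB6 (6.76) and ITGB3 (0.08 TPM). Among neighbours in that order, only ITGB2 and ITGB6 overlapped in their library values. By 72 h ITGB2 had moved from rank 8 to rank 3 and ITGB8 from rank 6 to rank 8. The ITGB2 libraries at 72 h (63.7 to 73.6 TPM) overlapped those of ITGB5 (57.9 to 71.3 TPM), so these 2 neighbours did not differ beyond their spread. At 24 h ITGA2 overlapped ITGB6, and at 48 h ITGB5 overlapped ITGB2 and ITGB8 overlapped ITGB6.

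**Figure D1:**
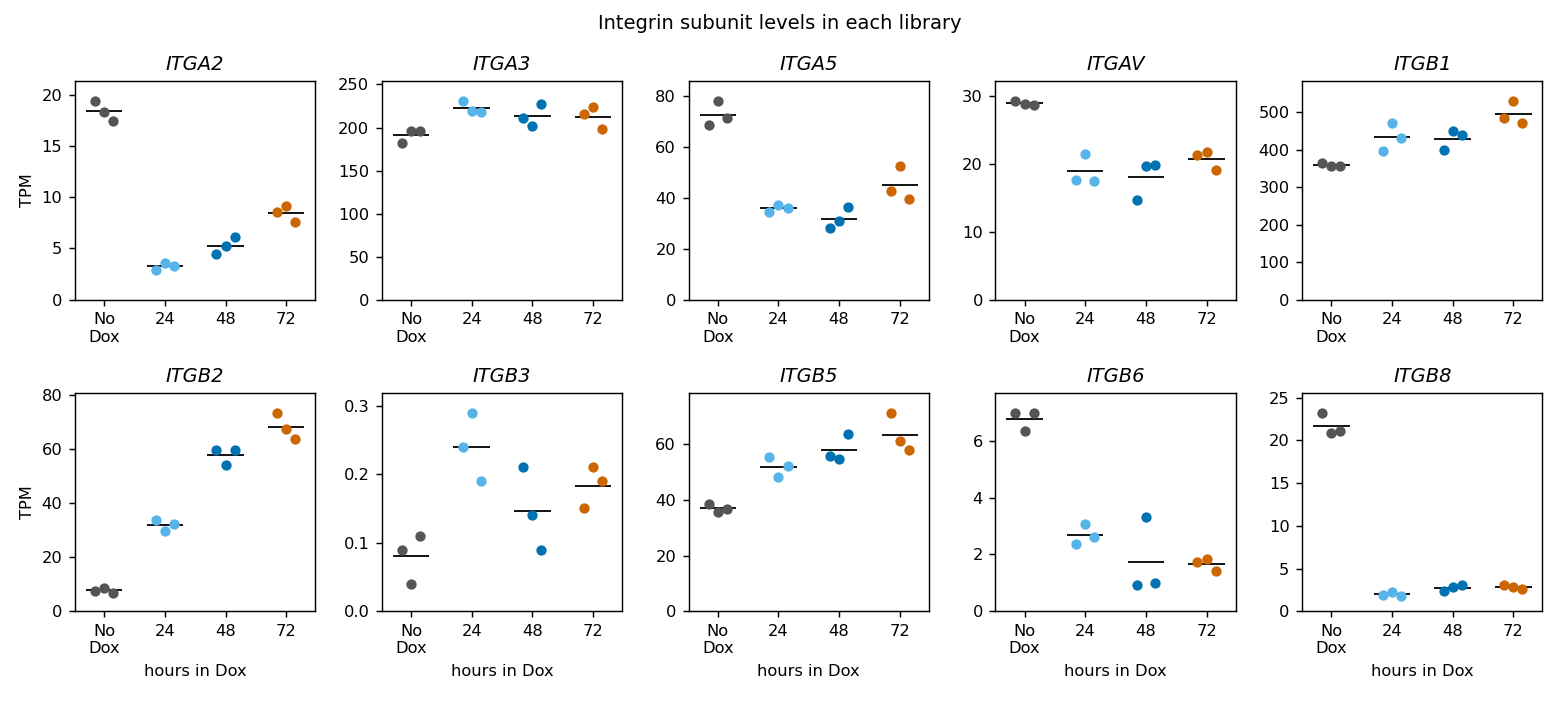
TPM of each of the 10 integrin subunit genes (y axis, linear and starting at 0, own scale in each panel) in No Dox and after 24, 48 and 72 h in Dox (x axis); points are single libraries and horizontal lines are means of 3. ITGB8 libraries lie at 20.9 to 23.3 TPM in No Dox and at 1.81 to 3.03 TPM in Dox, and ITGB2 libraries at 6.90 to 8.67 TPM in No Dox and 63.7 to 73.6 TPM at 72 h.

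TAZ has no DNA-binding domain and is known to reach DNA mainly through TEAD factors, and AP-1 is a further reported partner. For these cells the study reports TEAD and AP-1 motifs together at only a minority of TAZ sites. Promoter windows of the members were read from RefSeq sequence for the letters of both. The windows run from 250 bases before to 50 bases after a start and matched 7 of the 10 members (none for ITGA3, ITGB2 and ITGB3). The 4 members that were called lower at 1 time or more are shown, 5′ to 3′ on the strand of the gene, in lower case with any match in capitals to the TEAD letters GGAATG, the AP-1 letters TGANTCA or the GC box GGGCGG, each searched on both strands. ITGB8 lies at chr7:20330650-20330949 on the plus strand, ITGB6 at chr2:160200223-160200522 on the minus strand, ITGA2 at chr5:52989102-52989401 on the plus strand and ITGA5 at chr12:54419217-54419516 on the minus strand, all in GRCh38.p14.
ITGB8: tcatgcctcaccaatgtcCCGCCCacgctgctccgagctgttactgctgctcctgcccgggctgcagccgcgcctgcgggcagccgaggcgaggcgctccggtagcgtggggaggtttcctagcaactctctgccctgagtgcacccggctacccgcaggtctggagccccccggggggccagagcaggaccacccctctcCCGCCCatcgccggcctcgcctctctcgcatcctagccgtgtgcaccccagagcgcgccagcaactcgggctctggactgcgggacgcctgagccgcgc
ITGB6: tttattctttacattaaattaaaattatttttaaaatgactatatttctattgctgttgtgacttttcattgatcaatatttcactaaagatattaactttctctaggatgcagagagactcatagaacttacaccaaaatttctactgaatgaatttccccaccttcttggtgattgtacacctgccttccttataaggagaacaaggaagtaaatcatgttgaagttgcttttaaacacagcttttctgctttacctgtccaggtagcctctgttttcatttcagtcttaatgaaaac
ITGA2: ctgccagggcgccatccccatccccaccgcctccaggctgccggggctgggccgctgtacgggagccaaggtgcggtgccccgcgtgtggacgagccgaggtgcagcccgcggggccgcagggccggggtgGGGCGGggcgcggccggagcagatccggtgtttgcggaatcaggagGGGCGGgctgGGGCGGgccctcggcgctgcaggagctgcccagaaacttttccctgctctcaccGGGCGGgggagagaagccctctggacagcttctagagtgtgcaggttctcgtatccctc
ITGA5: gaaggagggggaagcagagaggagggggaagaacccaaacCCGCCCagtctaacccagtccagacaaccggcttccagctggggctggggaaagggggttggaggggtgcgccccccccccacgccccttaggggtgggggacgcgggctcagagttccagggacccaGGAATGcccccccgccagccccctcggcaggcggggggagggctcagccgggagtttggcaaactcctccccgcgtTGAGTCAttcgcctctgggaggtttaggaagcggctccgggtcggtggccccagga

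Of these 4 windows, only that of ITGA5 held the TEAD and the AP-1 letters, 82 and 6 bases before the start. The TEAD letters were found in 14.0% and the AP-1 letters in 7.71% of all 35116 RefSeq windows of this length. ITGA2 held 4 GC boxes, ITGB8 held 2, ITGA5 held 1, and the A and T rich ITGB6 window (31.7% G and C) held no match to any of the letters searched. The GC box was found in 45.0% of all windows. Among the other members with a window, ITGB1 held 1 match to the TEAD letters and 3 GC boxes, both in the same window of its 2, ITGB5 held GC boxes in each of its 3 windows, and neither window of ITGAV held a match. A match describes letters in a short stretch and says nothing of binding. The study placed most TAZ peaks at 24 h in introns or distal intergenic regions, and sequence beyond these windows was not searched.

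To ask how the integrin genes differed in the Dox groups, each was compared with No Dox. Genes were called where the adjusted p of edgeR's quasi-likelihood test (Benjamini-Hochberg over all genes tested) was under 0.05 and the log2 fold change was at least 1 in size, and log2 fold changes are given ± SE. At 24 h, 2 of the 10 members were called higher (12% of all genes tested) and 3 lower (17.7% of all). At 48 h the counts were 1 higher (10.6% of all) and 4 lower (14.4%), and at 72 h 1 higher (10.2%) and 3 lower (12.3%). By the adjusted p alone, 10, 9 and 9 members passed at 24, 48 and 72 h, where 75.2%, 71.8% and 69.2% of all genes did, so these shares are read against a response that touched most of the transcriptome. The median log2 fold change of the members was -0.19, -0.27 and -0.08, beside -0.028, -0.013 and -0.019 over all genes. These 3 comparisons share the No Dox libraries and are not independent of each other.

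**Figure D2:**
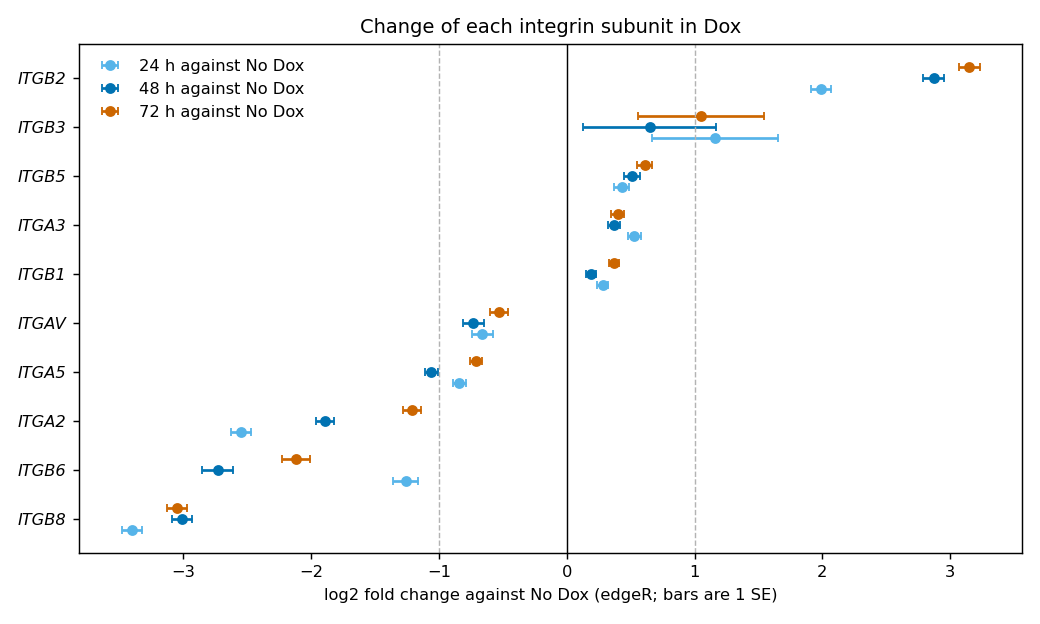
Log2 fold change of each integrin subunit gene against No Dox at 24, 48 and 72 h (edgeR, points; bars are 1 SE); dashed lines mark a log2 fold change of 1 in size. ITGB2 lies at 1.99, 2.87 and 3.15, ITGB8 at -3.40, -3.01 and -3.05, and the wide bars of ITGB3 come with 2 to 16 counts per library.

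The beta subunits best known for activating latent TGF-β together with αv both fell. ITGB8 (ENSG00000105855), the β8 chain, lies on the plus strand at chr7:20330702-20415754 of GRCh38. Its levels were 23.3, 20.9 and 21.1 TPM in the 3 No Dox libraries, 1.88, 2.28 and 1.81 TPM at 24 h, 2.38, 2.84 and 3.02 TPM at 48 h, and 3.03, 2.82 and 2.57 TPM at 72 h. Every Dox library lay below every No Dox library, and the 3 Dox groups stood close together. The log2 fold changes were -3.40 ± 0.08 (adjusted p 3.14e-19), -3.01 ± 0.08 (1.6e-18) and -3.05 ± 0.08 (1.27e-18), so that ITGB8 was 10.5-fold, 8.08-fold and 8.26-fold lower and had the lowest log2 fold change of the members at each time.

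ITGB6 (ENSG00000115221, minus strand, chr2:160099667-160200313), the β6 chain made by epithelia, also fell at each time. It stood at 6.96, 6.33 and 6.99 TPM in No Dox, at 2.37, 3.08 and 2.62 TPM at 24 h, at 0.93, 3.31 and 0.98 TPM at 48 h, and at 1.73, 1.84 and 1.42 TPM at 72 h. The groups in Dox did not overlap No Dox, and 1 library, 48 h replicate 2, stood apart from the other 2 of its group. That library was not apart in CPM (counts scaled by depth with TMM factors and not by length), with 3.79 against 3.28 and 3.37, but its effective length, the transcript length RSEM uses for TPM, was 1440 bases against 4271 and 4413. The log2 fold changes on counts were -1.26 ± 0.10 (adjusted p 2.28e-10), -2.73 ± 0.12 (7.18e-15) and -2.12 ± 0.11 (1.82e-13), and -2.20 at 48 h where effective lengths entered the edgeR fit. Summed over ITGB6 and ITGB8, the level was 28.5 ± 1.55 TPM (SD, n = 3) in No Dox and 4.68 ± 0.596, 4.49 ± 1.48 and 4.47 ± 0.419 TPM at 24, 48 and 72 h.

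ITGAV (ENSG00000138448, plus strand, chr2:186590010-186680901), the αv chain with which β6 and β8 pair, was lower but did not reach the fold threshold. Its levels were 29.3, 28.8 and 28.7 TPM in No Dox, 17.6, 21.5 and 17.5 TPM at 24 h, 14.7, 19.8 and 19.9 TPM at 48 h, and 21.3, 21.7 and 19.0 TPM at 72 h. All 9 Dox libraries lay below the 3 without Dox. It was lower by log2 fold changes of -0.66 ± 0.08 (adjusted p 8.84e-08), -0.73 ± 0.08 (2.1e-08) and -0.53 ± 0.07 (2.26e-06).

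Of the other αv partners, ITGB5 was higher in Dox and ITGB3 was barely measured. ITGB5 (ENSG00000082781, minus strand, chr3:124761948-124901418), the β5 chain of a vitronectin receptor, stood at 38.6, 35.5 and 36.8 TPM in No Dox, 55.5, 48.1 and 52.0 TPM at 24 h, 55.6, 54.6 and 63.8 TPM at 48 h, and 71.3, 61.1 and 57.9 TPM at 72 h. No Dox and Dox libraries did not overlap, and the log2 fold changes of 0.43 ± 0.06 (adjusted p 2.42e-06), 0.51 ± 0.06 (2.13e-07) and 0.61 ± 0.06 (1.72e-08) passed the adjusted p but not the fold threshold. ITGB3 (ENSG00000259207, plus strand, chr17:47253827-47313743), the β3 chain of platelets and endothelium, was near the limit of detection, with 2 to 7 counts per library in No Dox, 9.56 to 14 at 24 h, 3.89 to 13 at 48 h and 9 to 16 at 72 h. In TPM these were 0.04 to 0.11, 0.19 to 0.29, 0.09 to 0.21 and 0.15 to 0.21. Its log2 fold change was 1.16 ± 0.49 at 24 h (adjusted p 0.0371, called higher), 0.65 ± 0.52 at 48 h (0.265) and 1.05 ± 0.49 at 72 h (0.0627). The 24 h call was lost with DESeq2 (1.19, adjusted p 0.0761), with a replicate block (1.18, adjusted p 0.0501), and in the edgeR fits without No Dox replicate 1 or 2 or without 24 h replicate 2 or 3. RSEM shared reads between ITGB3 and an overlapping gene on the same strand, with a standard deviation of up to 52.2% of the count, so its level is uncertain.

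ITGB1 (ENSG00000150093, minus strand, chr10:32887273-33005792) pairs with αv and with many other alpha chains. It measured 365, 357 and 357 TPM in No Dox, 397, 471 and 432 TPM at 24 h, 398, 449 and 439.9 TPM at 48 h, and 485, 530 and 471 TPM at 72 h. All Dox libraries were above No Dox. In counts the change was small, with log2 fold changes of 0.28 ± 0.04 (adjusted p 5.65e-06), 0.19 ± 0.04 (0.000506) and 0.37 ± 0.04 (2.09e-07).

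The mix of beta chains that can pair with αv was taken as shares of the summed TPM of ITGB1, ITGB3, ITGB5, ITGB6 and ITGB8. These are shares of messenger RNA, and because β1 also serves other alpha chains they are not shares of receptors. ITGB8 made up 5.11 ± 0.22% (SD, n = 3) in No Dox and 0.405 ± 0.032%, 0.557 ± 0.037% and 0.498 ± 0.036% at 24, 48 and 72 h, and ITGB6 went from 1.59 ± 0.075% to 0.547 ± 0.036%, 0.348 ± 0.26% and 0.294 ± 0.024%. ITGB5 took 8.68 ± 0.22% in No Dox and 10.6 ± 1.5%, 11.8 ± 0.97% and 11.3 ± 1.3% in Dox. ITGB1 held 84.6 ± 0.46% and then 88.3 ± 1.4%, 87.3 ± 0.73% and 87.9 ± 1.3%. ITGB3 made up at most 0.0553% in any library, with 48 h overlapping No Dox (exact permutation p = 0.4). None of the other 4 shares overlapped between No Dox and a Dox group, and each two-sided exact permutation test gave p = 0.1, the smallest that 3 against 3 libraries allow (0.104 after adjustment over the 27 share tests). As a share of CPM, which is not corrected for length, ITGB8 differed from No Dox by -11.2, -10.8 and -11 percentage points, against -4.7, -4.55 and -4.61 points of TPM.

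**Figure D3:**
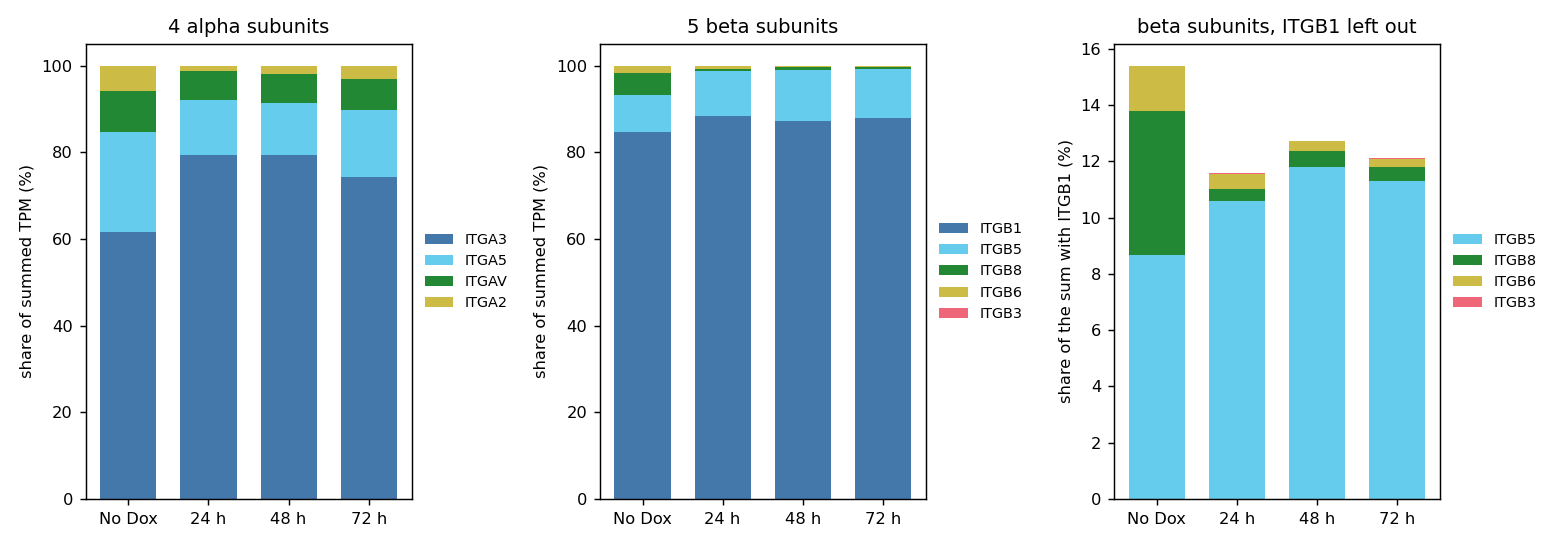
Mean share of summed TPM (y axis, percent; means of 3 libraries) in No Dox and after 24, 48 and 72 h in Dox for the alpha subunits ITGA3, ITGA5, ITGAV and ITGA2 (left), for the beta subunits ITGB1, ITGB5, ITGB8, ITGB6 and ITGB3 (middle), and for the same beta subunits with ITGB1 not drawn (right). The ITGB8 share goes from 5.11% to 0.405%, 0.557% and 0.498%, and the ITGA3 share from 61.5% to 79.3%, 79.5% and 74.2%.

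ITGB2 was the only member called higher at all 3 times. The β2 chain (ENSG00000160255, minus strand, chr21:44885953-44931989) pairs with ITGAL, ITGAM, ITGAX and ITGAD in leukocytes, where these receptors mediate arrest on vessel walls and phagocytosis. It stood at 7.56, 8.67 and 6.90 TPM in No Dox, 33.8, 29.8 and 32.3 TPM at 24 h, 59.7, 54.1 and 59.9 TPM at 48 h, and 73.6, 67.5 and 63.7 TPM at 72 h. The 4 groups did not overlap, and each later group lay above the one before. The log2 fold changes were 1.99 ± 0.08 (adjusted p 5.05e-15), 2.87 ± 0.08 (8.56e-18) and 3.15 ± 0.08 (1.76e-18), that is 3.98-fold, 7.32-fold and 8.89-fold.

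None of the alpha chains known to pair with β2 was measured above 0.26 TPM on average in any group, that level being ITGAM in No Dox, and ITGAD was at 0 throughout. All 4 failed the filter on low counts. Of 12 leukocyte markers, 4 stood at 1 TPM or more in each group, with summed levels of 75.0 to 88.6 TPM in No Dox, 125 to 138 at 24 h, 96.6 to 108 at 48 h and 114 to 122 at 72 h. The defining markers CD3E, MS4A1 and TYROBP were at 0 in every group, as was PTPRC, which encodes the pan-leukocyte protein CD45, in all Dox groups, with 0.00333 TPM in No Dox. LCP1, an actin-bundling protein of leukocytes that many epithelial lines also express, made up most of the sum and rose from 47.3 ± 0.955 TPM to 114 ± 5.5 TPM at 24 h (log2 fold change 1.23 ± 0.05, adjusted p 1.58e-15), while CD14, the coreceptor for bacterial lipopolysaccharide, fell from 19.6 ± 4.18 to 2.40 ± 1.24 TPM.

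Antisense transcripts of both ITGB2 and ITGB8, picked after their values were seen, moved in the same direction as the genes they overlap. ITGB2-AS1, on the opposite strand of ITGB2, had 51 to 59 counts per library in No Dox, 199 to 291 at 24 h, 219 to 291 at 48 h and 174 to 292 at 72 h, with log2 fold changes of 2.14 ± 0.13 (adjusted p 2.28e-12), 2.23 ± 0.13 (1.28e-12) and 1.94 ± 0.13 (1.99e-11). ITGB8-AS1 had 20 to 37 counts in No Dox and 0 to 9 counts in each Dox library, with log2 fold changes of -3.75 ± 0.55 (2.87e-06), -2.09 ± 0.44 (0.000255) and -2.48 ± 0.46 (6.5e-05). The library kit marks strand, but the strand setting of the counting is not given in the sources used here, and without it the reads of a gene and of its antisense partner cannot be told apart. RSEM recorded no reads shared between ITGB2 or ITGB8 and any other gene.

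Of the 4 alpha chains, ITGA2 had the lowest log2 fold change against No Dox at each time. The α2 chain (ENSG00000164171, plus strand, chr5:52989340-53094779) forms the main collagen receptor of epithelia and platelets. Its levels were 19.4, 18.3 and 17.4 TPM in No Dox, 2.91, 3.55 and 3.31 TPM at 24 h, 4.46, 5.27 and 6.08 TPM at 48 h, and 8.56, 9.18 and 7.53 TPM at 72 h. The fall was deepest at 24 h and the level was higher again at each later time, with no overlap between any of the 4 groups. The log2 fold changes were -2.55 ± 0.08 (adjusted p 1.77e-17), -1.89 ± 0.07 (1.63e-15) and -1.21 ± 0.07 (1.77e-12), which is 5.87-fold, 3.7-fold and 2.31-fold lower.

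ITGA5 (ENSG00000161638, minus strand, chr12:54395261-54419266) encodes the α5 chain of the classical fibronectin receptor. Its levels were 68.5, 78.1 and 71.2 TPM in No Dox, 34.5, 37.3 and 36.1 TPM at 24 h, 28.1, 30.8 and 36.3 TPM at 48 h, and 42.8, 52.4 and 39.7 TPM at 72 h. Every Dox library lay below every No Dox library. The log2 fold change was -0.84 ± 0.05 at 24 h (adjusted p 3.9e-12), -1.06 ± 0.05 at 48 h (1.09e-13) and -0.71 ± 0.05 at 72 h (9.38e-11), so only the 48 h value crossed the fold threshold. With effective lengths in the edgeR fit the 24 h value was -1.07, which crosses it as well.

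ITGA3 (ENSG00000005884, plus strand, chr17:50055968-50090481), the α3 chain of the laminin-332 receptor, was higher in counts, under the fold threshold. Its TPM were 182, 196 and 196 in No Dox, 231, 219 and 218 at 24 h, 211, 201 and 227 at 48 h, and 215, 224 and 199 at 72 h. The Dox libraries lay above No Dox, some of them by a few TPM. On counts these were log2 fold changes of 0.53 ± 0.05 (adjusted p 3.45e-09), 0.37 ± 0.05 (1.11e-06) and 0.40 ± 0.05 (3.81e-07), but 0.16, 0.07 and 0.05 when effective lengths entered the edgeR fit.

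**Figure D4:**
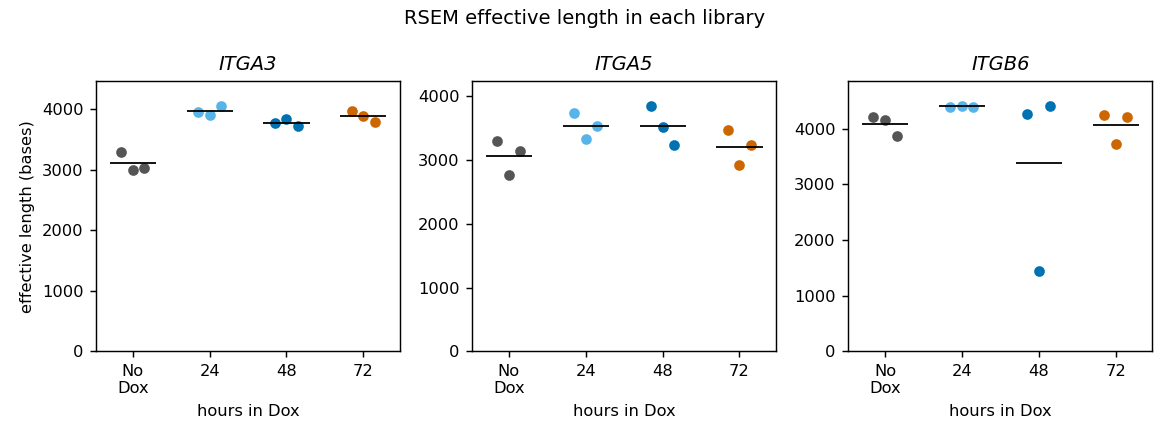
Effective length in bases (y axis, starting at 0) of ITGA3, ITGA5 and ITGB6 in No Dox and after 24, 48 and 72 h in Dox (x axis); points are single libraries and lines are means of 3. ITGA3 averages 3111 bases in No Dox and 3781 to 3976 bases in Dox, and the ITGB6 library at 1440 bases is 48 h replicate 2.

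The effective length of a gene is the mean over its transcripts weighted by their abundance, so it moves when the mix of transcripts moves. That of ITGA3 was 3111 ± 163 bases (SD, n = 3) in No Dox and 3976 ± 81.6, 3781 ± 59.6 and 3888 ± 97.8 bases at 24, 48 and 72 h, which is 27.8%, 21.5% and 25% longer, without overlap. That of ITGA5 was 15.4% longer at 24 h, also without overlap, while its 48 h and 72 h libraries overlapped No Dox. Smaller differences without overlap were a longer ITGB6 (7.83%), ITGB8 (6.69%) and ITGB1 (4.12%) at 24 h and a longer ITGB8 (3.44%) at 48 h. For each of these non-overlapping differences the exact permutation p was 0.1, the floor of the design, and 0.375 after adjustment over the 30 tests of effective length. Which transcripts of ITGA3 changed was not analysed here.

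In shares of the summed TPM of the 4 alpha chains, ITGA3 went from 61.5 ± 0.91% in No Dox to 79.3 ± 1.5%, 79.5 ± 1.9% and 74.2 ± 1.2% at 24, 48 and 72 h. ITGA5 went from 23.3 ± 0.86% to 12.8 ± 0.67%, 11.8 ± 0.85% and 15.6 ± 1.2%, ITGA2 from 5.91 ± 0.49% to 1.16 ± 0.13%, 1.96 ± 0.2% and 2.93 ± 0.08%, and ITGAV from 9.3 ± 0.42% to 6.73 ± 0.79%, 6.75 ± 1% and 7.21 ± 0.16%. No Dox and Dox libraries did not overlap in any of these shares, with the laminin-binding chain taking a larger part in Dox and the others a smaller part, and every exact permutation p was 0.1 (0.104 adjusted). On the CPM scale the differences from No Dox were -10.1, -8.5 and -6.74 percentage points for ITGA2, against -4.75, -3.95 and -2.98 of TPM, and -5.84, -5.38 and -4.73 points for ITGAV, against -2.57, -2.55 and -2.09.

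To separate early from late changes, 72 h was compared with 24 h. It called 2 of the 10 members higher (8.28% of all genes tested) and 0 lower (3.99% of all). Lower at an unadjusted p under 0.05 in edgeR were 2 members, and DESeq2 and limma on log2 TPM also called 0 lower. By the adjusted p alone 7 members passed, where 60.7% of all genes did. The 2 called members moved differently relative to No Dox: ITGA2 was 1.35 ± 0.08 higher on the log2 scale (adjusted p 8e-12) after its low at 24 h, and ITGB2 was 1.16 ± 0.07 higher (1.42e-11) after having risen already. ITGB6 was lower at 72 h than at 24 h by a log2 fold change of -0.85 ± 0.12 (2.02e-06), and ITGB8 differed by 0.35 ± 0.09 (0.00227), both under the fold threshold.

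Other integrin subunits were read from a list of 16, of which 7 passed the filter. At 24 h 1 was called higher (12% of all genes tested) and 4 lower (17.7% of all). At 48 h 3 (14.4% of all) and at 72 h 2 (12.3% of all) were called lower. The median log2 fold change of the 7 was -1, -0.41 and -0.02 at 24, 48 and 72 h. ITGA10, the α10 chain of a collagen receptor, went from 42.7 ± 3.36 TPM (SD, n = 3) to 0.893 ± 0.223, 1.64 ± 0.329 and 1.78 ± 0.765 TPM, with log2 fold changes of -5.14 ± 0.12 (adjusted p 3.05e-19), -4.79 ± 0.12 (6.13e-19) and -4.37 ± 0.11 (1.17e-18). ITGB4, the β4 chain of hemidesmosomes and more abundant in No Dox than ITGB1, went from 493 ± 17.9 TPM to 99.1 ± 7.1, 134 ± 9.7 and 183 ± 7.92 TPM, with log2 fold changes of -2.48, -2.06 and -1.57. Its partner ITGA6, the α6 chain, did not reach the fold threshold, with log2 fold changes of -0.07, -0.41 and -0.02. ITGA1, another collagen-binding chain, fell at 24 h by 1.04 on the log2 scale, from 9.64 to 3.89 TPM, and was 1.21 ± 0.07 higher at 72 h than at 24 h (adjusted p 6.16e-12). ITGAE, which pairs with β7 and binds E-cadherin, rose at 24 h from 21.99 to 59.88 TPM (log2 fold change 1.26 ± 0.10, adjusted p 2.17e-10). Its effective length averaged only 476 bases in No Dox and 427 at 24 h, so these TPM are high for 8.76 and 20.9 CPM. The β7 gene ITGB7 failed the filter on low counts, with 0.843 TPM in No Dox and 0.227 TPM at 24 h.

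Matrix ligands of these receptors moved in both directions. Of 24 listed, 17 were tested. At 24, 48 and 72 h, 8, 8 and 7 were called higher, beside 12%, 10.6% and 10.2% of all genes tested. Called lower were 3, 5 and 4, beside 17.7%, 14.4% and 12.3% of all. FN1, fibronectin, the ligand of α5β1 and of several αv receptors, went from 4.06 ± 1.19 TPM to 50.6 ± 1.28, 47.2 ± 5.61 and 72.5 ± 8.04 TPM (log2 fold changes 3.39, 3.26 and 3.97, each ± 0.08) at the times when ITGA5 and ITGAV were lower. CCN1, a matricellular ligand of αv and β2 integrins and a YAP/TAZ target, had log2 fold changes of 5.15, 5.05 and 5.17, and CCN2 of 2.69, 2.91 and 2.95. TNC, tenascin-C, was called higher at 24 h (3.30 ± 0.24) and was 3.98 ± 0.26 lower at 72 h than at 24 h on the log2 scale, though never above 2.43 TPM in a library.

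**Figure D5:**
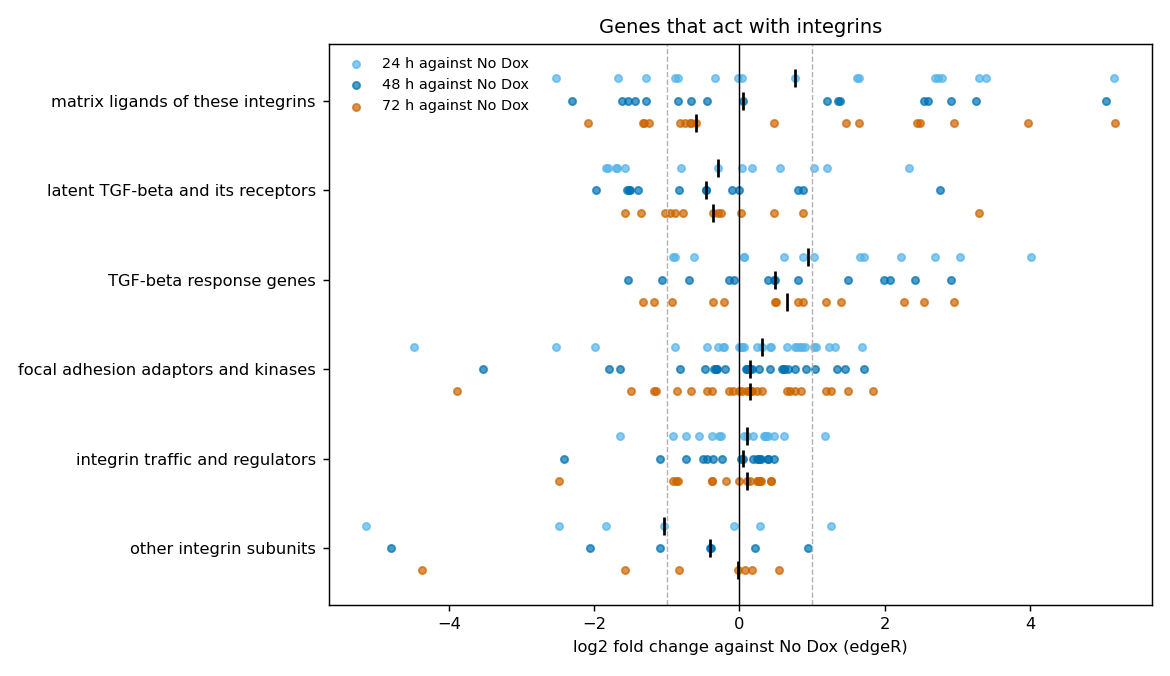
Log2 fold change against No Dox (x axis, edgeR) of each tested gene in 6 lists of genes that act with these integrins, with points for 24, 48 and 72 h on separate rows; black bars are list medians and dashed lines mark a log2 fold change of 1 in size. The matrix ligand medians are 0.76, 0.05 and -0.6, and the latent TGF-β medians are -0.29, -0.46 and -0.36.

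The genes that store and sense TGF-β moved in both directions. Of 15 listed, 13 were tested, with 3, 1 and 1 called higher (12%, 10.6% and 10.2% of all genes were) and 5, 5 and 3 lower (17.7%, 14.4% and 12.3% of all) at 24, 48 and 72 h. LTBP1 and LTBP4, which tether latent TGF-β to the matrix where αvβ6 can pull on it, were called lower at each time; LTBP1 went from 45.8 ± 2.29 TPM to 14.3 ± 0.367, 16.3 ± 2.67 and 15.6 ± 2.3 TPM, and LTBP4 from 56.7 ± 1.39 to 18.0 ± 1.42, 18.1 ± 3.41 and 28.3 ± 3.3 TPM. LRRC32 and NRROS, which present latent TGF-β to αvβ8, failed the filter. TGFB2 went up from 1.33 ± 0.437 TPM to 8.02 ± 1.33, 9.75 ± 1.12 and 13.9 ± 1.45 TPM (log2 fold changes 2.34, 2.76 and 3.30, called at each time); its latency peptide lacks the RGD motif that αv integrins read in TGFB1 and TGFB3. BMP1, a protease that acts on matrix and latent TGF-β binding proteins, was called lower at 24 h and 48 h (log2 fold changes -1.84 and -1.39). It was called higher at 72 h against 24 h (1.06 ± 0.05, adjusted p 1.09e-12). TGFBR3, the coreceptor betaglycan, was called lower at the same 2 times as BMP1 (-1.69 and -1.55). At 72 h both were still lower than in No Dox, under the fold threshold, by -0.78 ± 0.05 for BMP1 (adjusted p 1.88e-11) and -0.88 ± 0.09 for TGFBR3 (4.68e-08).

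TGF-β response genes, many of which are also YAP/TAZ targets, were called higher more often than lower. Of 15 listed, 14 were tested, and 7, 5 and 5 were called higher at 24, 48 and 72 h, against 2 lower at 48 h and 2 at 72 h. Over all genes tested, 12%, 10.6% and 10.2% were called higher and 17.7%, 14.4% and 12.3% lower. At 24 h edgeR called 0 lower (3 were lower at an unadjusted p under 0.05), and DESeq2 and limma also called 0. TAGLN, a smooth muscle actin-binding protein, had log2 fold changes of 3.04, 2.42 and 2.54. PMEPA1, a TGF-β induced feedback inhibitor, and TGFBI, a secreted matrix protein, were both lower at 72 h than at 24 h, by log2 fold changes of -2.08 ± 0.07 and -2.04 ± 0.05. CCN2, LTBP2 and COL1A1 also stand elsewhere among the lists, and COL1A1 was called lower at 48 h and 72 h (-1.54 and -1.33). A response list of this kind does not separate TGF-β from TAZ.

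On the inner face of the membrane, adaptors moved in both directions. Of 27 tested focal adhesion genes, 5, 4 and 4 were called higher and 3, 3 and 4 lower at 24, 48 and 72 h, beside 12%, 10.6% and 10.2% of all genes called higher and 17.7%, 14.4% and 12.3% called lower. ACTN1, the α-actinin that crosslinks actin at adhesions, went from 97.5 ± 2.26 to 317 ± 7.91, 326 ± 11.5 and 290 ± 19 TPM (log2 fold changes 1.69, 1.71 and 1.5). TNS2, a tensin that binds the tails of beta subunits, went from 37.0 ± 2.38 to 6.87 ± 1.59, 10.97 ± 0.358 and 15.2 ± 3.35 TPM (-2.52, -1.79 and -1.49), and TNS1 was called lower at the same 3 times at under 4 TPM. Of 17 tested regulators of integrin traffic, CD82, a tetraspanin that associates with integrins, was called lower at each time, from 50.9 ± 4.03 TPM to 18.2 ± 1.09, 11.4 ± 2.38 and 10.2 ± 2.22 TPM. LGALS3, galectin-3, was called lower at 48 h (-1.09 ± 0.05), and the abundant tetraspanins CD151 and CD63 stayed under the fold threshold, with log2 fold changes of 0.24 and -0.38 at 72 h.

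By distance over the log2 fold changes at 24, 48 and 72 h, 10749 protein-coding genes of at least 5 CPM in a group were compared with the highest and the lowest called member at 72 h. Closest to ITGB2 were EFEMP1, an extracellular matrix glycoprotein (distance 0.206), CDH4, a cadherin (0.271), and KRT8, a keratin of simple epithelia (0.281). KRT8 went from 196 TPM to 748, 1419 and 1898 TPM, and EFEMP1 from 107.5 to 471, 828 and 1116 TPM. Closest to ITGB8 were the carboxypeptidase M gene (distance 0.138 on counts, with 2.22 TPM in No Dox and 0.82, 0.843 and 0.52 TPM in Dox), OAS1, an interferon-induced enzyme (0.23), and TFPI, the tissue factor pathway inhibitor (0.281), which went from 173 to 19.8, 19.4 and 26.1 TPM. All of these distances rest on the same 12 libraries and describe likeness only.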

How the data were processed

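RNA was sequenced from 12 libraries of TAZ-4SA MCF10A cells, 3 in each of 4 groups taken from the treatment labels of the samples. The authors mapped paired reads to GRCh38 with STAR and estimated transcript abundance with RSEM under GENCODE annotation (tool versions and RSEM's strand setting not given in the sources used here), and the deposited files hold, per gene, an expected count, a TPM value (scaled for effective length and depth by RSEM), an effective length and the standard deviation of the count due to shared reads. PCR duplicates cannot be told from independent molecules in these counts.

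Expected counts were rounded and fitted in R 4.3.3 with edgeR 4.0.16 (TMM factors, filterByExpr, quasi-likelihood F test, 1 fit over the 12 libraries with a mean per group, Benjamini-Hochberg over 14822 genes). The fit put the biological coefficient of variation at 5.71%. Calls needed an adjusted p under 0.05 together with a log2 fold change of at least 1 in size, and SE was the log2 fold change divided by the root of F. The study used DESeq2; DESeq2 1.42.0 was run here as an alternative, also with effective lengths, as were limma 3.58.1 on log2(TPM + 0.1), other scaling factors, filters and thresholds, a fit with replicate number as a block, and fits that left out 1 library each. The fit was tested on simulated counts with known changes. Shares and effective lengths were compared by two-sided exact permutation of libraries. Gene names and coordinates came from GENCODE 44 on GRCh38, which named 56321 of the 60483 rows, and promoter sequences from RefSeq.

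The members and the gene lists were chosen with earlier results of these data known. Besides the members and WWTR1, the genes named were, per list and comparison, up to 3 called genes with the largest change and at least 5 CPM in the higher group (the 2 most abundant where none was called), other integrin subunits of at least 5 CPM, and the genes closest to the highest and lowest called member; marker and antisense genes named beyond this were chosen after their values were seen. Same-numbered libraries of different groups did not deviate together (18 pairs, mean correlation 0.017, 3 of them over 0.1), so replicate numbers were not taken to pair libraries. Protein sequences were not analysed here, and some genes that this rule names are not reported here.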

Additional observations from a re-analysis of the deposited data

Results flagged for a closer look

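A pair of integrin genes changed between 24 h and 72 h in Dox beyond the fold threshold, by the edgeR test of that difference itself. ITGA2 was higher at 72 h than at 24 h by 1.35 ± 0.08 on the log2 scale (adjusted p 8e-12, n = 3 against 3, all 3 libraries higher), and its change against No Dox was -2.55 at 24 h and -1.21 at 72 h. ITGB2 was higher by 1.16 ± 0.07 (adjusted p 1.42e-11, all 3 libraries higher), with 1.99 at 24 h and 3.15 at 72 h. The ITGB2 value no longer passed when edgeR tested for a change larger than the fold threshold.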

How the results depend on the processing

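At 24 h against No Dox, 2 members were called higher, but 1 with DESeq2, with no filter, with a mean of at least 1 CPM, with glmTreat (edgeR's test against a log2 fold change of 1), with limma on log2 TPM and with the replicate block, and 1 to 2 when each library was left out in turn. The gene lost was ITGB3 in each, which the CPM filter removed. With no fold threshold the counts were 5 higher and 5 lower at 24 h, 4 higher at 48 h, 4 higher and 5 lower at 72 h, and 5 higher and 2 lower for 72 h against 24 h, where glmTreat called 1 higher. ITGB3 for 72 h against 24 h was -0.11 and ranged from -0.25 to 0.03 when libraries were left out, turning sign without 24 h replicate 2 and, at 0.01, without 72 h replicate 1. ITGA5 crossed the fold threshold at 24 h with effective lengths (-1.07) and on TPM (-1.01) and lost its 48 h call with glmTreat. The gain in share at 72 h rested on the scale: 3.3 percentage points of TPM against 9.89 of CPM for ITGB1, and 12.7 against 18.6 for ITGA3. CPM is not corrected for length, so long transcripts weigh more in it. The effective length of ITGA3 was also 25% longer at 72 h than in No Dox, and the part of each in the gap was not tested. The replicate block changed no other call of a member. Over all alternatives, 1016 log2 fold changes of the members and WWTR1 kept their direction and side of the threshold. A further 23 newly passed, 11 no longer passed and 2 turned sign, those of ITGB3 given above. Those that newly passed did so in the unchanged main fit once the fold threshold was dropped, except ITGA5 at 24 h with effective lengths and on TPM. The median log2 fold change of all genes stayed under 0.1 in size in every setting. For 72 h against No Dox it was 0.093 with limma on log2 TPM, beside -0.019 in the main fit. At 2 to 16 counts per library, depth limits ITGB3, and its level bears no firm statement.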

Other observations

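Markers of 2 further cell types were read beside the integrins. Of 9 fibroblast markers, PDGFRA, COL1A2, COL3A1 and THY1 were at 0 in every group, and the summed level was 38.2 to 39.2 TPM in No Dox and 13.7 to 28.1 TPM in Dox. Among them DCN, a small matrix proteoglycan, was called lower at each time, with 798 to 1063 counts per library in No Dox, 14 to 26 at 24 h, 3 to 5 at 48 h and 0 to 3 at 72 h, and FAP, a membrane protease, was called higher (log2 fold changes 2.08, 1.83 and 1.84). The 9 endothelial and platelet markers summed to 9.85 to 10.95 TPM in No Dox and 1.25 to 4.05 TPM in Dox. PECAM1, an adhesion protein of endothelial junctions, was called lower at each time, with 101 to 146 counts per library in No Dox and 0 to 2 in Dox. The part of these markers in the integrin results was not tested.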
